A study of Mus musculus with 8 samples.

Results

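The Hox genes encode homeodomain transcription factors that lie in 4 clusters, Hoxa on mouse chromosome 6, Hoxb on chromosome 11, Hoxc on chromosome 15 and Hoxd on chromosome 2. The order of the genes along a cluster matches the order in which they are used from head to tail of the embryo, and adult fat depots keep a pattern of Hox transcripts that reflects where in the body they lie. Members of one paralog group hold the same place in their clusters. In fat, genes at the posterior end of the clusters are better known from subcutaneous and gonadal white depots, whereas interscapular brown fat lies in the anterior trunk. All probes named Hoxa, Hoxb, Hoxc or Hoxd with a number were followed, and groups 1 to 7 are called anterior and groups 8 to 13 posterior. They named 40 transcripts of the 31829 names on the array. These were 39 Hox genes (20 anterior and 19 posterior) and 1 antisense transcript at Hoxa11. Of the 39 genes, 24 passed the filter on dim probes and were tested, 17 anterior and 7 posterior. The comparison asked whether posterior Hox genes rose in fat that lacks Prdm16 together with white fat genes, or whether the pattern of position stayed as it was.

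RNA of brown adipose tissue from mice labelled Prdm16 knockout and from wild-type mice was measured on 2-colour arrays. Prdm16 encodes a zinc-finger regulator that is known to promote the brown fat programme. Mice aged 6 weeks and mice aged 11 months filled 4 arrays each. Every array paired a knockout with an age-matched wild-type sample, and at each age the knockout was in Cy3 on 2 arrays and in Cy5 on 2. The labels state 4 biological replicates per condition and give no strain, sex, depot, promoter or Cre driver for the knockout, so how far the deletion reached beyond brown fat cells is not known here. Both ages share these 2 genotypes and differ in age, slide and batch, so a level that differs between the ages cannot be told apart from a batch. Brown fat's defining genes Ucp1 and Cidea were well above background in all 16 channel measurements (2 channels of 8 arrays). The Prdm16 probe read lower in the knockout on 7 of 8 arrays, with a fitted log2 ratio of -0.58 at 6 weeks (adjusted p = 0.042, limma) and -0.50 at 11 months (adjusted p = 0.037, limma). The labels do not say whether the deleted part holds that probe. Ratios below are log2, knockout over wild type, and a gene counts as called where its adjusted p over 21742 genes is under 0.05. Between 61.2% and 68.2% of the spots in a channel were well above background. Of the genes called, 56.7% were higher in the knockout at 6 weeks and 51.7% at 11 months, and under median centring in place of loess 70.0% and 70.8%. For the difference between the ages the share was 46.6%, and 59.6% under median centring.

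The paralogs of group 4 stand first because Hoxb4, Hoxc4 and Hoxd4 were among the 4 Hox genes whose response differed between the ages. RefSeq promoter entries of build GRCm38.p6 matched 23 of the 40 transcript names. The 250 bases before the transcription start are shown for these 3 genes, and for Hoxb8 as a posterior gene measured in part of the samples. The entries lie at chr11:96318017-96318266 for Hoxb4, chr15:103034145-103034394 for Hoxc4, chr2:74721728-74721977 for Hoxd4 and chr11:96281655-96281904 for Hoxb8, all on the + strand and written 5′ to 3′. Capitals mark matches, on either strand, to TGATNNAT, a composite site of Hox proteins with their partner Pbx, or to TTTATNG, a form that posterior Hox proteins prefer.
Hoxb4: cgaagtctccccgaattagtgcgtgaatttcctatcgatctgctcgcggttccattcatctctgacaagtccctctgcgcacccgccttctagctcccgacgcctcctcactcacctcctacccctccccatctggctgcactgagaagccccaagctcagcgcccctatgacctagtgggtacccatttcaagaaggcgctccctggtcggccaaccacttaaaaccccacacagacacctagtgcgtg
Hoxc4: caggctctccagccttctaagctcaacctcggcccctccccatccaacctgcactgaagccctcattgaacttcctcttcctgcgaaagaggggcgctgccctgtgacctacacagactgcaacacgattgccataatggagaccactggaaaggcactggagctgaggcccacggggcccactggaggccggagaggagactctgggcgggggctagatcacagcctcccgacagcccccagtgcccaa
Hoxd4: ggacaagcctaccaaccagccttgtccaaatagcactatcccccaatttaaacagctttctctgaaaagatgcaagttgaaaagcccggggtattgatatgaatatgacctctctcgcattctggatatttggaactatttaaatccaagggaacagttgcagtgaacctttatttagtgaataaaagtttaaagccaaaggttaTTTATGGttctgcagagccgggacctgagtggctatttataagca
Hoxb8: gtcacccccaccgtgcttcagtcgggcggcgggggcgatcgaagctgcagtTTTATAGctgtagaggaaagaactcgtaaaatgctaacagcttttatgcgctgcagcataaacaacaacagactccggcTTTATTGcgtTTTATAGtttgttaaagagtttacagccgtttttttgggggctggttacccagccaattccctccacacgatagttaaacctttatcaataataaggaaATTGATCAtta

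The Hoxb8 stretch held 3 matches to TTTATNG and 1 to TGATNNAT, the Hoxd4 stretch held 1 match to TTTATNG, and those of Hoxb4 and Hoxc4 held neither. Over all 32851 promoter entries of this length, 9.81% held TTTATNG and 7.68% held TGATNNAT. Of the 25 Hox entries, 2 held TTTATNG, both among the stretches shown, and 4 held TGATNNAT. Another pattern, TAATTA, the core that homeodomains bind, was in none of these 4 stretches. It was in 4.84% of all entries and in 2 of the 25 Hox entries. None of these patterns overlapped another in the stretches shown. A match of letters describes the sequence and does not show a bound site. The sequences differed in base composition as well, with a G and C share of 40.4% in Hoxd4 against 58% in Hoxb4 and 62% in Hoxc4.

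Which Hox genes could be measured followed their place in the clusters. Of the 20 anterior genes, 17 were well above background in all 16 channel measurements, and the other 3 (Hoxb1, Hoxd1 and Hoxd3) in none. Of the 19 posterior genes, Hoxa9 and Hoxd8 were above background in all 16, 6 genes in some and 11 in none. The genes of groups 10, 11 and 13 were at background in every channel. Hoxc10, which is known from subcutaneous fat as a brake on thermogenic genes, was among them, and its level was not well above background in any knockout or wild-type sample. Its background-level ratios were 0.10, 0.022, 0.049 and -0.029 at 6 weeks and -0.12, 0.011, -0.025 and -0.16 at 11 months, with no direction in common. Hoxc9, a marker of white and thermogenic beige depots, was above background in 1 wild-type channel at 11 months and in no knockout channel. Its ratios, likewise at background, were 0.030, -0.19, -0.025 and -0.100 at 6 weeks and 0.24, -0.21, 0.013 and 0.12 at 11 months. In this tissue the 11 posterior genes without signal had only an upper bound in both genotypes, so no ratio is read from them. How far the probes themselves differ in brightness was not tested.

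**Figure D1:**
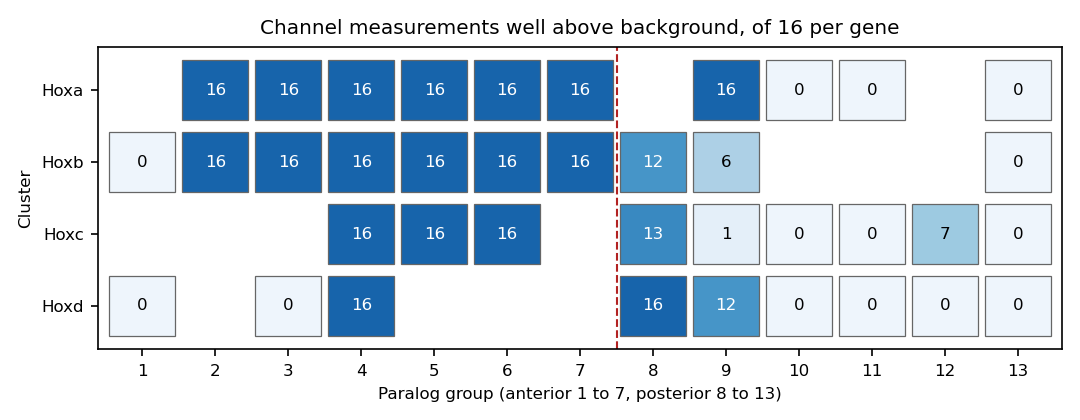
Each square is one of the Hox genes shown, placed by paralog group (horizontal axis) and cluster (vertical axis), with the number of its 16 channel measurements that lay well above background. Numbers of 16 fill groups 2, 4, 5, 6 and 7 left of the dashed line, and groups 10, 11 and 13 hold only 0.

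The 7 posterior genes that could be tested were Hoxa9, Hoxb8, Hoxb9, Hoxc8, Hoxc12, Hoxd8 and Hoxd9. None was called at 6 weeks, where 16.2% of all genes were called, none at 11 months, where 34.7% were, and none for the difference between the ages, where 18.2% were. In limma each of these 3 comparisons held 1 posterior gene with an unadjusted p below 0.05. Their median log2 ratio was 0.046 at 6 weeks and 0.098 at 11 months, beside -0.0011 and 0.0082 over all genes. The 95% intervals of the 7 genes reached at most 0.59 at 6 weeks and 0.62 at 11 months. These limits hold for the offset and background correction used here. With the scanner software's own ratio the fitted values at 11 months were 1.37 for Hoxb8 and 0.93 for Hoxc8, and both were called. In whole tissue, fewer cells of a type and less RNA per cell cannot be told apart.

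The white fat genes rose in the same samples. Of 18 white fat-selective genes tested, 10 were higher at 6 weeks and none lower, with a median of 1.06, where 9.18% of all genes were called higher. At 11 months 14 of the 18 were higher, with a median of 1.68, where 17.9% were. Retn, the adipokine resistin, rose by 2.40 at 6 weeks (adjusted p = 0.00029, limma) and by 3.92 at 11 months (adjusted p = 8.0e-06, limma). At 11 months Psat1, an enzyme of serine synthesis, was higher by 3.91, Slc7a10, an amino acid transporter of white adipocytes, by 3.12, and Rarres2, which encodes chemerin, by 3.02. Of 19 brown fat-selective genes, 3 were higher and 2 lower at 6 weeks, and 1 was higher and 14 lower at 11 months, where 16.8% of all genes were called lower. The difference between the ages was called for 12 of the 19, each of them lower at 11 months. Ucp1, the uncoupling protein of brown mitochondria, was lower by a log2 ratio of -4.05 at 11 months.

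Array by array, the median of the posterior Hox genes lay between 0.019 and 0.18, while single genes ranged further. On array 4 at 11 months Hoxd9 read 0.89, Hoxc8 0.76 and Hoxb8 0.65, and on array 2 at 6 weeks Hoxa9 read 0.58. The median of the 7 posterior genes was 0.076, 0.020, 0.11 and 0.048 on arrays 1 to 4 at 6 weeks, where that of the white fat list was 1.34, 0.76, 0.90 and 1.18. At 11 months the posterior medians were 0.034, 0.077, 0.019 and 0.18 beside 2.12, 1.80, 1.02 and 2.03 for the white fat list. The array with the highest white fat median at either age was not the one with the highest posterior Hox median. The array with the lowest white fat median at each age also had the lowest posterior Hox median. Whether the 2 medians moved together over the arrays was not tested. At 11 months the lowest was array 3. On it, repeat spots of the background-level Hoxa11 and Hoxb1 probes had SDs of 0.012 and 0.013 in log2 ratio. On the other arrays of that age these SDs ran from 0.097 to 0.16, and the reason was not tested. The 17 anterior genes had medians between -0.14 and 0.025 at 6 weeks and between -0.011 and 0.27 at 11 months.

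**Figure D2:**
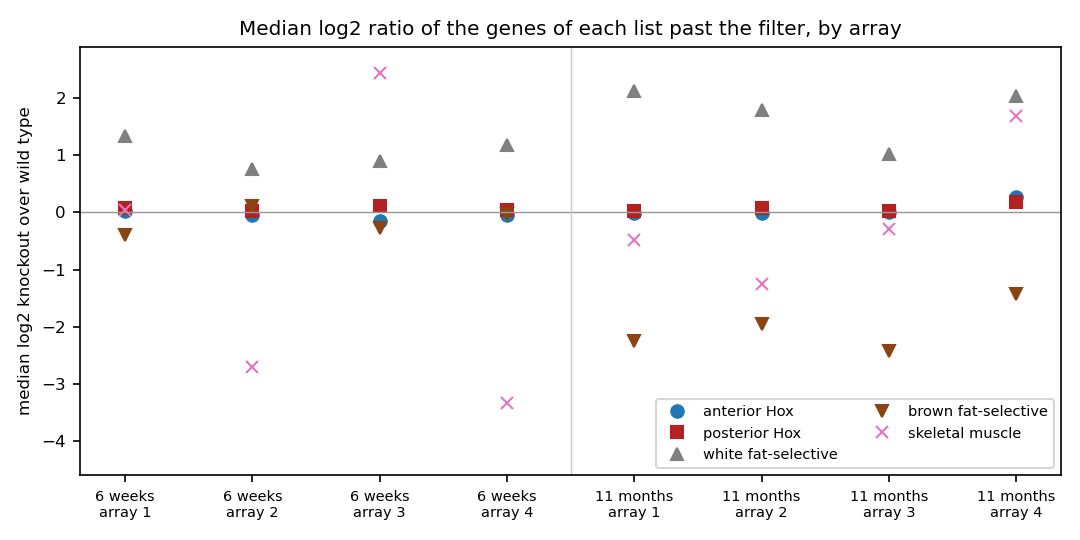
Points are the median log2 ratio of knockout over wild type of each gene list on each of the 8 arrays, for genes past the filter. Both Hox classes lie between -0.14 and 0.27 on every array, while the white fat list lies between 0.76 and 2.12 and the skeletal muscle list between -3.34 and 2.45. The offset draws the ratios of dim probes toward 0, and several posterior genes were dim.

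Hoxc8, a gene of the thoracic trunk that is known to oppose brown adipocyte formation, came nearest to a posterior rise. Its log2 ratios were 0.12, 0.081, 0.15 and 0.22 at 6 weeks and 0.50, 0.057, 0.050 and 0.76 at 11 months. All 8 lay above 0, and at 11 months arrays 1 and 4 were high while arrays 2 and 3 were near 0. Repeat spots of background-level probes varied least on array 3 of that age, so a dim gene's value near 0 there says less. The channel levels of Hoxc8 at 11 months ran from 7.11 to 7.48 in knockout and from 6.73 to 7.14 in wild type (log2 intensity), so the groups overlapped. Such ranges of levels, here and below, set the pairing within arrays aside, whereas the ratios keep it. Here and below, the standard error (SE) of a fitted value is limma's. It rests on the spread over all 8 arrays and is moderated across genes, and n counts only the arrays of the age named. The fitted ratio of Hoxc8 was 0.14 ± 0.12 (SE, n = 4 arrays) at 6 weeks and 0.34 ± 0.12 at 11 months (adjusted p = 0.059, limma, not called).

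That result depends on the source of the ratio. At 11 months Hoxc8 was called with the scanner software's own ratio (0.93, adjusted p = 0.0023, limma), with the deposited value table (0.55, adjusted p = 0.0026, limma) and without background subtraction (0.52, adjusted p = 0.0029, limma). It was also called without array 2 (0.45) or array 3 (0.46) of that age, and was 0.18 without array 4 (not called). In the main model an offset of 50 was added to each channel, which by construction draws the ratios of dim probes toward 0. The scanner software's ratio and the deposited table were taken as given, and the fit without background subtraction had no offset. Array 4 is also the one with the highest skeletal muscle median at 11 months (1.69, all 20 genes positive, against -1.26 to -0.30 on the others), and the part of muscle in this ratio was not tested.

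Hoxb8 and Hoxd9 were also spread over the arrays at 11 months. Hoxb8, a gene of the lower trunk that also acts in myeloid cells, read 0.11, 0.051, 0.13 and 0.062 at 6 weeks and -0.23, 0.54, 0.022 and 0.65 at 11 months, and its fitted value of 0.24 was not called. With the scanner software's own ratio it was 1.37 and called, as it also was without array 1 of that age. Hoxd9, which patterns the lumbar trunk and limb, read 0.22, 0.078, 0.0057 and 0.89 at 11 months, with a fitted value of 0.30 that was called under no alternative. Both genes overlapped between genotypes, and array 4 was the highest for each.

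Posterior genes were above background in more knockout than wild-type channels in the older mice. At 11 months Hoxc8 was above background in 4 knockout and 2 wild-type channels, Hoxb8 in 3 and 1, and Hoxd9 in 3 and 1. At 6 weeks Hoxb8 and Hoxd9 were above background in all 4 channels of both genotypes, and Hoxc8 in 4 knockout and 3 wild-type channels. Over the 8 posterior genes with any signal, 23 knockout and 16 wild-type channels were above background at 11 months, and 22 of each at 6 weeks. These counts were not tested. Over all spots, too, the knockout channel of each 11-month array had the larger share well above background, 67.5% against 65.2%, 66.6% against 61.7%, 63.2% against 61.2% and 63.8% against 61.3% on arrays 1 to 4.

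**Figure D3:**
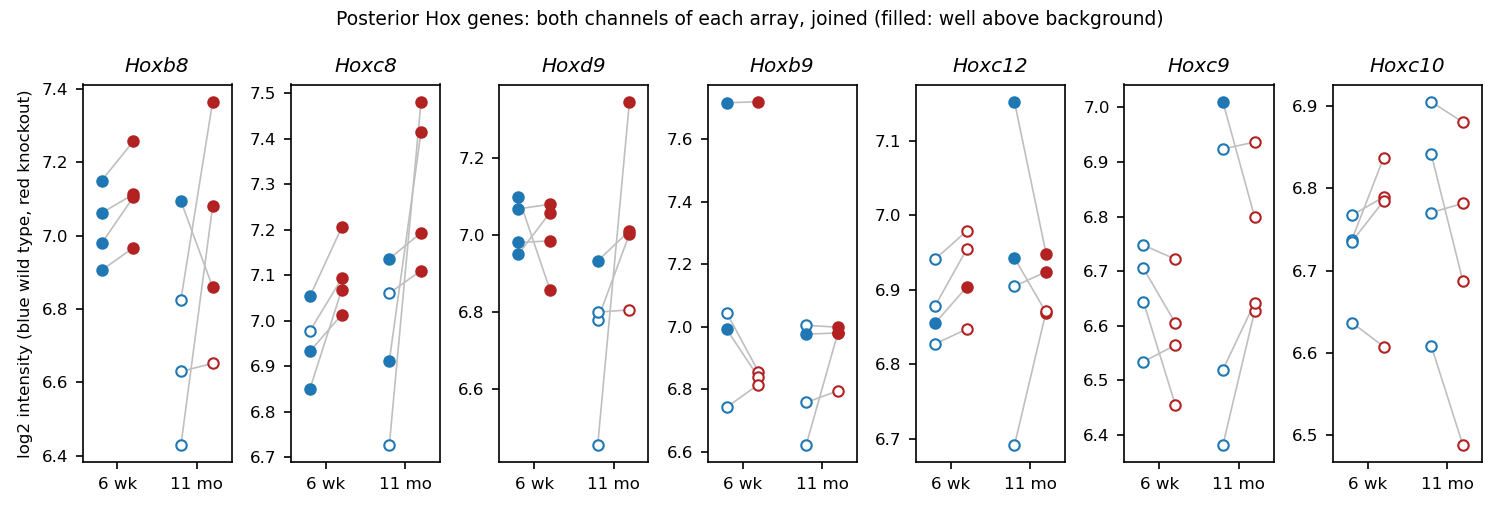
Each line joins the wild-type (blue) and knockout (red) channel of 1 array, as log2 intensity after scaling between arrays, for 7 posterior Hox genes at 6 weeks and 11 months. Filled circles were well above background, and each gene has its own vertical axis. At 11 months Hoxc8 is filled in 4 knockout and 2 wild-type channels, and Hoxc10 is open throughout.

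The remaining posterior genes showed no common direction. Hoxa9, which is best known from blood stem cells and the lumbar trunk, read 0.44, 0.58, 0.026 and 0.30 at 6 weeks. All 4 were positive, and the fitted value of 0.34 ± 0.11 (SE, n = 4 arrays) was not called (adjusted p = 0.074, limma). It was called with a dye coefficient for each age (adjusted p = 0.035, limma), with each age modelled alone (adjusted p = 0.038, limma) and without array 4 of the 11-month set (adjusted p = 0.023, limma). A dimmer Hoxa9 probe gave -0.047 at 6 weeks, so the 2 probes of this gene disagreed. At 11 months the Hoxa9 ratios were 0.034, 0.077, 0.082 and -0.38. Hoxb9, Hoxc12 and Hoxd8 had fitted values between -0.17 and 0.046 at 6 weeks and between -0.036 and 0.098 at 11 months.

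Among the anterior genes, fitted changes at 11 months went both ways, from -0.50 to 0.49. Of the 24 Hox genes tested, 4 were higher and 1 was lower at that age, 5 in all, a share of 20.8% beside the 34.7% of all genes. Every one of the 5 was anterior, which is 29.4% of the 17 anterior genes. For the difference between the ages 4 of the 24 were called, each with a higher ratio at 11 months and each anterior. This was a share of 16.7% of the 24 and 23.5% of the 17 anterior genes, beside 18.2% of all genes. The median size of change at 11 months, without regard to sign, was 0.23 over the Hox genes and 0.17 over all genes.

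Hoxb5, which acts in the migration of neural crest cells and in the trunk mesoderm, had the lowest adjusted p of the Hox genes. Its log2 ratios at 11 months were 0.43, 0.55, 0.33 and 0.65 on arrays 1 to 4. All arrays were positive, and the knockout levels (8.22 to 8.38, log2 intensity) did not overlap those of the wild type (7.67 to 8.06). The fitted value was 0.49 ± 0.077 (SE, n = 4 arrays), or 1.40-fold (adjusted p = 0.0023, limma). At 6 weeks the ratios of 0.14, 0.083, -0.28 and -0.060 lay on both sides of 0, and the fitted value was -0.028. The difference between the ages was 0.52 (adjusted p = 0.018, limma). The probe lies at chr11:96167130-96167189 of mm9, and the files give no exon for it. RefSeq (GRCm38.p6) lists a long noncoding gene, Hoxb5os, whose span holds all of Hoxb5 and of its neighbour Hoxb6.

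Hoxb4 and Hoxd4, paralogs of the neck level of the trunk, were higher as well. Hoxb4, also known for the expansion of blood stem cells, had ratios of 0.63, 0.26, 0.12 and 0.27 at 11 months and -0.098, -0.17, -0.0080 and -0.042 at 6 weeks. Each 11-month array lay above each 6-week array. Taken over the arrays without the pairing, the levels of the genotypes at 11 months overlapped (10.25 to 10.48 in knockout, 9.66 to 10.36 in wild type). The fitted value at 11 months was 0.32 ± 0.071 (SE, n = 4 arrays; adjusted p = 0.010, limma), and the difference between the ages was 0.40 (adjusted p = 0.032, limma). The probe lies at chr11:96182885-96182944 of mm9.

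Hoxd4, which acts in the upper cervical vertebrae, had ratios of 0.19, 0.60, 0.25 and 0.45 at 11 months. At 6 weeks they were -0.29, -0.18, 0.00055 and -0.093. The 2 sets of ratios did not overlap, and at 11 months the lowest knockout level (8.18, log2 intensity) was just above the highest wild-type level. Its fitted value was 0.37 ± 0.078 (SE, n = 4 arrays; adjusted p = 0.0083, limma) at 11 months and -0.14 at 6 weeks, with a difference of 0.51 (adjusted p = 0.019, limma). The probe lies at chr2:74566866-74566925 of mm9.

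The calls of Hoxb4, Hoxb5 and Hoxd4 at 11 months were kept under all 20 alternatives. Without array 4 of that age, where muscle genes ran high in the knockout, the values were 0.30, 0.45 and 0.32. The calls for the difference between the ages were less stable. Under median centring in place of loess the adjusted p-values were 0.32 for Hoxb4, 0.11 for Hoxb5 and 0.091 for Hoxd4 (limma). Without array 2 of the 11-month set Hoxb5 was at 0.059 and Hoxd4 at 0.058, and without array 2 or array 4 of the 6-week set Hoxd4 was at 0.053 and 0.054. With the 3 arrays of the largest muscle medians left out, which leaves 1 array at 6 weeks, they were 0.47, 0.35 and 0.18 (limma). The Hoxb4 difference was also lost with no dye coefficient (0.062), without any 1 of the 4 arrays at 6 weeks and without array 1 or array 4 at 11 months (adjusted p from 0.052 to 0.087, limma).

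Hoxc4, the paralog on chromosome 15, passed for the difference between the ages (0.35, adjusted p = 0.038, limma) and at neither age alone. Its ratios were -0.32, -0.55, 0.059 and -0.043 at 6 weeks and 0.47, 0.34, -0.25 and -0.0040 at 11 months. They followed the dye: at each age the 2 arrays with knockout in Cy5 read higher than the 2 with knockout in Cy3. The dye coefficient of Hoxc4 passed the threshold on its own (0.24, adjusted p = 0.032, limma). With no dye coefficient the adjusted p of its difference was 0.27 (limma). The call was also lost under median centring (0.43), with the scanner software's ratio (0.058), without the 3 arrays of the largest muscle medians (0.56), and without array 2, 3 or 4 at 6 weeks or array 1, 2 or 4 at 11 months (adjusted p from 0.079 to 0.11, limma).

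Hoxa4 went the other way. Its ratios at 11 months were -0.10, -0.24, -0.48 and -0.33, and at 6 weeks -0.088, -0.043, -0.22 and -0.10. All 8 arrays were below 0. Taken over the arrays without the pairing, the levels at 11 months overlapped, from 8.84 to 9.10 in knockout and from 9.08 to 9.58 in wild type. The fitted value at 11 months was -0.29 ± 0.068 (SE, n = 4 arrays), or 1.22-fold lower (adjusted p = 0.014, limma). The call was lost under median centring (-0.096, adjusted p = 0.62, limma), without array 2 (adjusted p = 0.055, limma) and without array 3 (adjusted p = 0.058, limma) of that age. Of the 4 paralogs of group 4, Hoxb4 and Hoxd4 were thus called higher and Hoxa4 lower at 11 months, and Hoxc4 was not called. The Hoxa4 probe lies at chr6:52140287-52140346 of mm9.

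Hoxa5, a gene of the neck and upper thorax that is also needed for lung development, had the largest fitted change of the 24 tested Hox genes at 11 months and was not called. Its ratios were -0.31, -0.83, -0.25 and -0.61 at that age. All 4 were negative, and the genotypes overlapped (8.40 to 9.01 in knockout, 8.74 to 9.26 in wild type, log2 intensity). The fitted value was -0.50 ± 0.17 (SE, n = 4 arrays; adjusted p = 0.058, limma). It was called with the scanner software's ratio (-0.79), the deposited value table (-0.60), no background subtraction (-0.59) and each age modelled alone, and without array 3, array 4 or all of arrays 2, 3 and 4 of the 6-week set. At 6 weeks the ratios were 0.46, -0.23, 0.28 and -0.64, which had no direction in common.

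Hoxb2, a gene of hindbrain segments and facial nerve, completed the 11-month calls. It read 0.60, 0.28, 0.18 and 0.50, and its knockout levels (8.53 to 8.62) lay above those of the wild type (8.02 to 8.41). The fitted value was 0.39 ± 0.12 (SE, n = 4 arrays; adjusted p = 0.042, limma). This was the least stable of the 5 calls, lost under 9 alternatives. These were median centring, no filter, no dye coefficient, and leaving out array 2, 3 or 4 at 6 weeks or array 1, 2 or 4 at 11 months, with adjusted p from 0.051 to 0.19 (limma). At 6 weeks Hoxb2 read 0.70, 0.20, -0.092 and -0.0076.

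**Figure D4:**
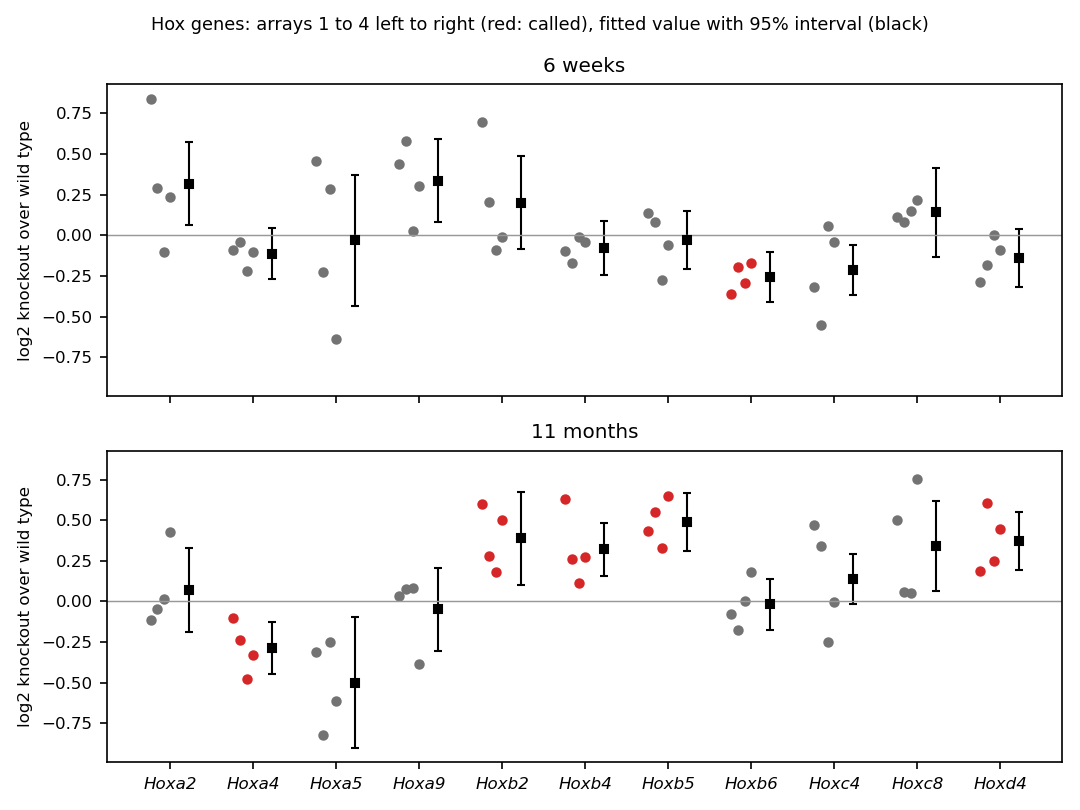
Points mark the log2 ratio (knockout over wild type) of arrays 1 to 4, left to right, for 11 Hox genes at each age, red where the gene was called, with the fitted value and its 95% interval in black. At 11 months the 4 points of Hoxb2, Hoxb4, Hoxb5 and Hoxd4 all lie above 0 and those of Hoxa4 and Hoxa5 all below it.

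At 6 weeks 2 of the 24 Hox genes were called, 8.33% beside 16.2% of all genes, 1 higher and 1 lower. Of all genes 9.18% were called higher and 7.01% lower at that age. Hoxb6, a gene of trunk and limb mesoderm, had ratios of -0.36, -0.20, -0.29 and -0.17, all below 0. Its fitted value at 6 weeks was -0.26 ± 0.067 (SE, n = 4 arrays; adjusted p = 0.040, limma), and the levels overlapped (8.84 to 9.02 in knockout, 9.01 to 9.24 in wild type). The Hoxb6 probe lies at chr11:96162563-96162622 of mm9.

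At 11 months Hoxb6 was not called, with ratios of -0.075, -0.18, 0.0025 and 0.18. Its 6-week call was not stable and was lost under 13 of 20 alternatives, among them median centring and the scanner software's ratio. It was lost without any 1 array of its own age and without array 1, 2 or 3 at 11 months, with adjusted p from 0.056 to 0.17 (limma). In the 6-week mice Hoxa2, which sets the identity of the second pharyngeal arch, read 0.84, 0.29, -0.10 and 0.24 and was not called (0.32, adjusted p = 0.089, limma). At 11 months it read -0.11, -0.047, 0.016 and 0.43. The other 6 anterior genes with 1 kept probe (Hoxa3, Hoxa6, Hoxa7, Hoxb7, Hoxc5 and Hoxc6) had fitted values from -0.22 to 0.17 at 6 weeks and from -0.23 to 0.24 at 11 months, and none was called.

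The gene Hoxb3 was read by 2 probes that went opposite ways. The brighter one, which stands for the gene, gave -0.21 at 6 weeks (adjusted p = 0.056, limma) and -0.012 at 11 months. The other gave 0.39 at 6 weeks and 0.31 at 11 months, with adjusted p of 0.017 and 0.018 over all kept probes (limma), and was positive on all 8 arrays. Whether the 2 probes read different transcripts was not tested. The antisense transcript at Hoxa11 was above background in all 16 channels, unlike Hoxa11 itself, which was above background in none. It read 0.012 at 6 weeks and -0.20 at 11 months, where it was not called (adjusted p = 0.064, limma).

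**Figure D5:**
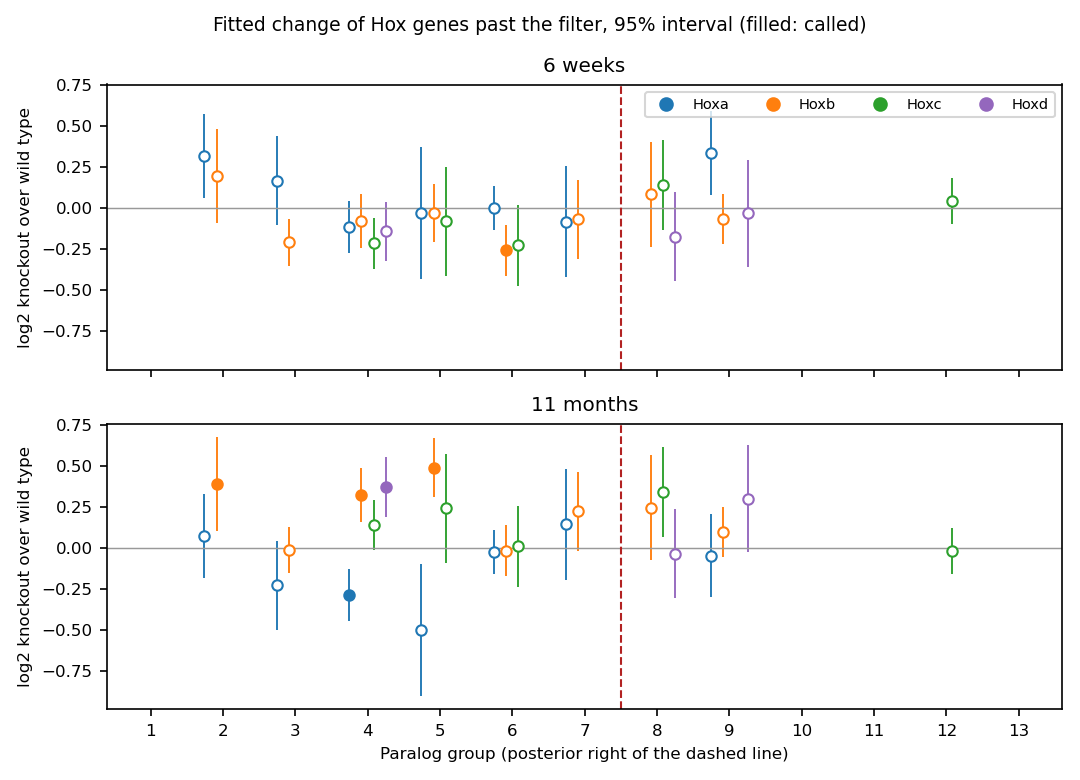
Fitted log2 ratios with 95% intervals of Hox genes past the filter, by paralog group (horizontal axis) and cluster (colour), filled where called. At 11 months the filled points are Hoxb2, Hoxb4, Hoxb5, Hoxd4 (above 0) and Hoxa4 (below 0), and none lies to the right of the dashed line.

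Genes beside the clusters were tested as well. Of 7 flanking genes tested, 1 was lower at 6 weeks and 2 at 11 months, beside 7.01% and 16.8% of all genes called lower. Mtx2, a mitochondrial import protein encoded next to the Hoxd cluster, was lower by a log2 ratio of -1.32 at 11 months (adjusted p = 4.8e-05, limma), where Hoxd4 was higher and Hoxd8 and Hoxd9 were not called. Skap2, an adaptor protein gene next to the Hoxa cluster, fell by 0.34 at 6 weeks and by 0.36 at 11 months. Calcoco1 and Smug1 beside the Hoxc cluster, Skap1 and Ttll6 near the Hoxb cluster and Lnpk near the Hoxd cluster were not called at either age.

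Cofactors and regulators of Hox genes were called in both directions. Of 11 TALE homeobox genes, whose products bind DNA together with Hox proteins, Meis2 rose by 0.35 and Pbx3 fell by 0.52 at 6 weeks, and Pbx2 fell by 0.22 at 11 months. Of 15 Polycomb genes, which keep unused Hox genes silent, 1 was higher and 2 were lower at 6 weeks, and 2 were higher and 3 lower at 11 months. These 3 of 15 and 5 of 15, and the TALE calls above, stand beside 16.2% and 34.7% of all genes called. Pcgf2 was lower at both ages (-0.33 and -0.50), and Ezh2, the H3K27 methyltransferase, was lower at 11 months (-0.37). Of 7 Trithorax and H3K27 demethylase genes, none was called at 6 weeks by limma (3 had an unadjusted p below 0.05). Kdm6b (-0.31) and Men1 (-0.29) were lower at 11 months, where 16.8% of all genes were called lower.

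Retinoic acid switches on anterior Hox genes in the embryo, and 9 genes of caudal and retinoid signalling were tested. None was called at 6 weeks by limma (2 had an unadjusted p below 0.05), and at 11 months 3 were higher and 1 was lower. Aldh1a1, which makes retinoic acid, was higher by 1.94, Cyp26b1, which degrades it, by 0.70, and the receptor Rara by 0.47. Crabp2 was lower (-0.24). The 3 Cdx genes, which drive posterior Hox genes in the embryo, were on the array and did not pass the filter. Of 18 other depot and regional transcription factors, 1 was higher and 1 lower at 6 weeks, and 3 were higher and 1 lower at 11 months. Beside both lists stand the shares of all genes called, 16.2% at 6 weeks and 34.7% at 11 months. Meox2 fell by 0.56 at 6 weeks, and Nr2f1 (0.61), Meox1 (0.55) and Pax7 (-0.37) were called at 11 months.

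Markers of other cells in the tissue moved at 11 months too. Of 13 fibroblast and adipocyte progenitor genes 10 were higher, with a median of 0.83, and of 10 macrophage and myeloid genes 8 were higher, with a median of 0.57. Of all genes 17.9% were called higher at that age. The fibroblast median by array was 0.52, 0.47, 1.82 and 0.40, and the macrophage median was 0.13, 0.019, 1.17 and 0.65. Array 3, with the highest of both, had the lowest ratio of Hoxb2, Hoxb4 and Hoxb5 and the most negative ratio of Hoxa4. Hoxd4, also called at that age, had its lowest ratio on array 1 (0.19) and read 0.25 on array 3. Without array 3 the ratios were 0.51 for Hoxb2, 0.37 for Hoxb4, 0.58 for Hoxb5 and -0.23 for Hoxa4. At 6 weeks 1 of 13 fibroblast genes was higher, and 1 of 10 macrophage genes was higher and 1 lower. Of all genes 9.18% were called higher and 7.01% lower at 6 weeks. Of 9 endothelial genes 3 were lower at 6 weeks and none was called at 11 months by limma, where 2 had an unadjusted p below 0.05. None of 7 lymphocyte genes was called by limma, with 0 at an unadjusted p below 0.05 at 6 weeks and 1 at 11 months. Of 4 skin and epithelium genes 1 was higher at 6 weeks and none was called at 11 months, where 0 had an unadjusted p below 0.05 in limma. None of 20 skeletal muscle genes was called at either age by limma, and 0 had an unadjusted p below 0.05. The muscle median ran from -3.34 to 2.45 over the arrays at 6 weeks and from -1.26 to 1.69 at 11 months. The part of these cells in the Hox values was not tested.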

How the data were processed

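Brown fat RNA samples from 4 knockout and 4 wild-type replicates per age were hybridised in pairs on Agilent 2-colour arrays with the dyes exchanged on 2 of 4, per the labels' protocols. The deposited scanner files (Feature Extraction 10.5.1.1 at 6 weeks, 10.10.1.1 at 11 months, probe positions on mm9, per the file headers) give each spot's mean and background intensity and the software's own log10 ratio. The submitters' deposited table gives log2 values, and limma is named in their processing notes. Set against scanner ratios turned to knockout over wild type, r ran from 0.856 to 0.914. The deposited columns are thus log2 ratios of knockout over wild type on every array, whichever dye held the knockout. Their medians lie from -0.05 to 0.084, and how they were centred stays unknown.

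Intensities were background-corrected (normexp, offset 50) and normalized within arrays (loess) and, for levels, between arrays (Aquantile) in limma 3.58.1 under R 4.3.3. Control and outlier spots were left out. A probe was kept when well above background in at least 4 of 16 channels with values on 3 or more arrays per age, and the brightest kept probe stood for a gene. This left 21742 genes from 39429 probes, 14810 with RefSeq names and 6932 with the array's own. One limma model held a coefficient for each age and one for dye (5 residual degrees of freedom), with Benjamini-Hochberg adjustment over all genes. The number of arrays limits the precision. Scripts were tested on simulated data.

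Values in each array are given for Hox genes called in any comparison, for Hoxa5, Hoxc8, Hoxc9 and Hoxc10, and for up to 4 uncalled genes with the largest change. The members and gene lists were chosen with earlier results of these data known. Alternatives changed the ratio source, normalization, background, filter, probe rule, dye term, replicate block and arrays used. One, leaving out the 3 arrays of the largest muscle medians, was chosen after seeing the data; its lone 6-week array is assumed to vary like the others. Some results are not reported here.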

Additional observations from a re-analysis of the deposited data

Results flagged for a closer look

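The ratio of Hoxa9 on array 4 at 11 months, -0.38, stood far from those of the other 3 arrays, with a gap of 0.898 of the group's whole range. The 12 Hox genes past the filter that were named by rule were checked at both ages, 24 groups in all, and chance marks about 1 in 20 groups. The knockout over wild-type ratio differed between the ages for 4 Hox genes by limma's test of the difference. At 11 months it was higher by 0.52 for Hoxb5, 0.51 for Hoxd4, 0.40 for Hoxb4 and 0.35 for Hoxc4. Age, slide and batch coincide in this design, so age and batch cannot be told apart in these differences.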

How the results depend on the processing

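No result changed direction past the threshold. The 4 Hox genes called higher at 11 months were within 1.5 times that count under all 20 alternatives, and no posterior gene was called for the difference between the ages under any of 19. Of all genes, 3520 were called at 6 weeks, 2278 with the scanner software's ratio, 948 under median centring, 1138 without the 3 arrays of the largest muscle medians, and 1238 to 4278 without 1 array. At 11 months 7544 were called, 4912 under median centring and 5027 to 7643 without 1 array. For the difference 3952 were called, 552 under median centring, 2518 with no dye coefficient, 562 without the 3 muscle arrays and 2118 to 3225 without 1 array.

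Of the Hox genes at 6 weeks, 1 was called higher and 1 lower. Neither was called with the scanner ratio, median centring, no dye coefficient or without the 3 muscle arrays (0 and 0), the lower one was lost with the deposited table and without background subtraction (0), and a dye coefficient per age gave 2 of each. Without 1 array both counts ran from 0 to 2. Posterior calls at 6 weeks were 1 with a dye coefficient per age and with each age modelled alone, and 0 to 1 without 1 array. At 11 months Hox genes called lower were 2 with the scanner ratio, the deposited table, no background subtraction, each age alone and without the 3 muscle arrays, 0 under median centring, and 0 to 2 without 1 array. Posterior calls at 11 months were 2 with the scanner ratio, 1 with the deposited table, 1 without background subtraction and 0 to 1 without 1 array. For the difference, Hox genes called higher were 0 under median centring and without the 3 muscle arrays, 2 with no dye coefficient and 1 to 4 without 1 array, and those called lower 0 to 1 without 1 array. The cause of these changes was not tested.

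Replicate numbers are shared by the ages. Deviations of same-numbered arrays had r of -0.20 to -0.05, and of -0.060 to 0.092 with a dye coefficient per age. With so few arrays per age these r values cannot show whether the numbers pair samples. With the replicate number as a block 4186 genes were called at 6 weeks, 7744 at 11 months and 4245 for the difference. Under that block 5 Hox genes were called higher and 2 lower at 11 months. Hoxa5 was then called lower at 11 months (adjusted p = 0.0099, limma), and the Hoxc4 difference between the ages lost its call (adjusted p = 0.060, limma). Of the 7 posterior genes tested, 5 were well above background in only some channels.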
